A study of Mus musculus with 9 samples.

Results

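Tissue inhibitors of metalloproteinases (Timp genes) and synapsins (Syn genes) share loci in the mouse genome: Timp1, Timp3 and Timp4 lie inside the spans of Syn1, Syn3 and Syn2, on the opposite strand, whereas Timp2 stands outside any synapsin gene. These 7 genes were chosen by symbol, and all 7 were found among the 25965 gene entries of the deposited count table. The 3 synapsin and Timp pairs were compared row against row in every library, and each gene was compared between genotypes. Sciatic nerves of C57BL/6 mice carrying a PINCH1 mutation, of mice carrying a PINCH2 mutation and of control littermates were profiled by RNA sequencing, with 3 libraries in each group. Total RNA of 4 pooled nerves, taken from 1 male and 1 female and stripped of the epineurium, made up each library. The labels give the age as postnatal day 15 in one field and as day 14 in another. The sources used here do not say how the genes were mutated or in which cells, or how far the mutants share alleles with the controls.

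TIMPs are secreted proteins that block the active site of matrix metalloproteinases and of related ADAM and ADAMTS proteases, and so set how fast extracellular matrix is turned over. TIMP3 is bound to the matrix, TIMP2 also takes part in the activation of pro-MMP2 at the cell surface, and TIMP1 is known to be induced in nerve after injury. Synapsins are neuronal phosphoproteins that coat synaptic vesicles and tether them to the cytoskeleton in nerve terminals. The sciatic nerve contains axons and Schwann cells with fibroblasts, perineurial cells, vessels and macrophages, but not the cell bodies of the neurons whose axons run through it.

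The nested Timp genes start away from synapsin exons, and the sequences before these starts are shown because they differ in base composition. The 250 bases upstream of each RefSeq start (build GRCm38.p6) lie within the synapsin span and touch no synapsin exon. They are given 5′ to 3′ on the Timp strand, with each CpG in capitals, and for Timp3 without the last 40 bases, which lie inside the deposited Timp3 entry. The sequence of Timp1 is chrX:20869916-20870165, plus strand, that of Timp3 chr10:86300162-86300371, plus strand, and that of Timp4 chr6:115252206-115252455, minus strand.
Timp1: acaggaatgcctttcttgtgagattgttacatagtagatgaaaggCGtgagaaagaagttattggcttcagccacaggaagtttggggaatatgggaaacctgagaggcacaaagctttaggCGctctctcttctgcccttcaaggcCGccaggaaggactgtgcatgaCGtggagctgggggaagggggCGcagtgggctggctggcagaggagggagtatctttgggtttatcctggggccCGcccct
Timp3: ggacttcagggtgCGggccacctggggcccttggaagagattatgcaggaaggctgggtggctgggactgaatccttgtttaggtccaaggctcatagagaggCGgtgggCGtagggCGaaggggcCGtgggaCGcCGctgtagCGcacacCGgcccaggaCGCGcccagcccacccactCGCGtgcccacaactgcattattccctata
Timp4: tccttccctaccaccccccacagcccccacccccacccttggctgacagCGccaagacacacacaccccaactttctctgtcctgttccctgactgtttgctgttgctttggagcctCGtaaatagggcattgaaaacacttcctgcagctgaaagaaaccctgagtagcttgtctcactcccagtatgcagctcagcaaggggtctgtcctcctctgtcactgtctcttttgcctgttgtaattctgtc
Timp3 had 18 CpGs in the whole window of 250 bases, Timp1 had 6 and Timp4 had 2. The median over 32851 promoter windows of this length was 6, and 21.7% of the windows held at least 18. The letters GGGCGG, searched on both strands of the whole windows, occurred 1 time in the Timp3 and in the Timp1 window and were not found in that of Timp4. The Timp3 match lies in the 40 bases that are not printed. They were present in 32.7% of all windows. The letters TGAGTCA (4.46% of all windows) and TATAAA (12.4%) were in none of the 3 windows on either strand. The deposited counts are totals per gene, so they do not say which start was used.

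No source used here says whether reads were counted by strand, so the exons of each pair were compared in GENCODE M21, an annotation on the build of the deposited table, GRCm38. Timp3 (chromosome 10, 86300372 to 86349506, plus strand) lies in Syn3 (86055125 to 86498896, minus strand), and a Syn3 transcript annotated as a retained intron has an exon at 86347774 to 86351640. This exon shares 1733 bases with the last Timp3 exon, at 86345705 to 86349506, all of them in the 3′ UTR of Timp3. Timp1 (chromosome X, 20870166 to 20874735, plus strand) lies in Syn1 (20860511 to 20921004, minus strand) with 0 exon bases in common. Timp4 (chromosome 6, 115245616 to 115251849 in the deposited table, minus strand) lies in Syn2 (115134902 to 115282626, plus strand). In GENCODE M21 the last Timp4 exon reaches further, to 115241892, and shares 90 bases with a Syn2 exon at 115244146 to 115244235. That exon is outside the deposited Timp4 span, so the deposited entries of this pair share 0 exon bases. Timp2 (chromosome 11, 118301069 to 118355740, minus strand) had no entry on the opposite strand within its span. Syn3 and Timp3 were therefore the only pair of the 3 with exon bases on both strands within the deposited spans. The shared 1733 bases are part of 8144 exon bases of Timp3 and 12282 of Syn3. Without the strand setting, counts from the shared bases cannot be told from transcription of the other gene. How many of the counts under either name came from them cannot be told from totals per gene. It is also not given on which strand a read had to lie to count for a gene. A count here is therefore that of the named entry, and was not shown to be the level of that gene's RNA. Whether entries hold counts of RNA from the opposite strand was not tested.

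**Figure D1:**
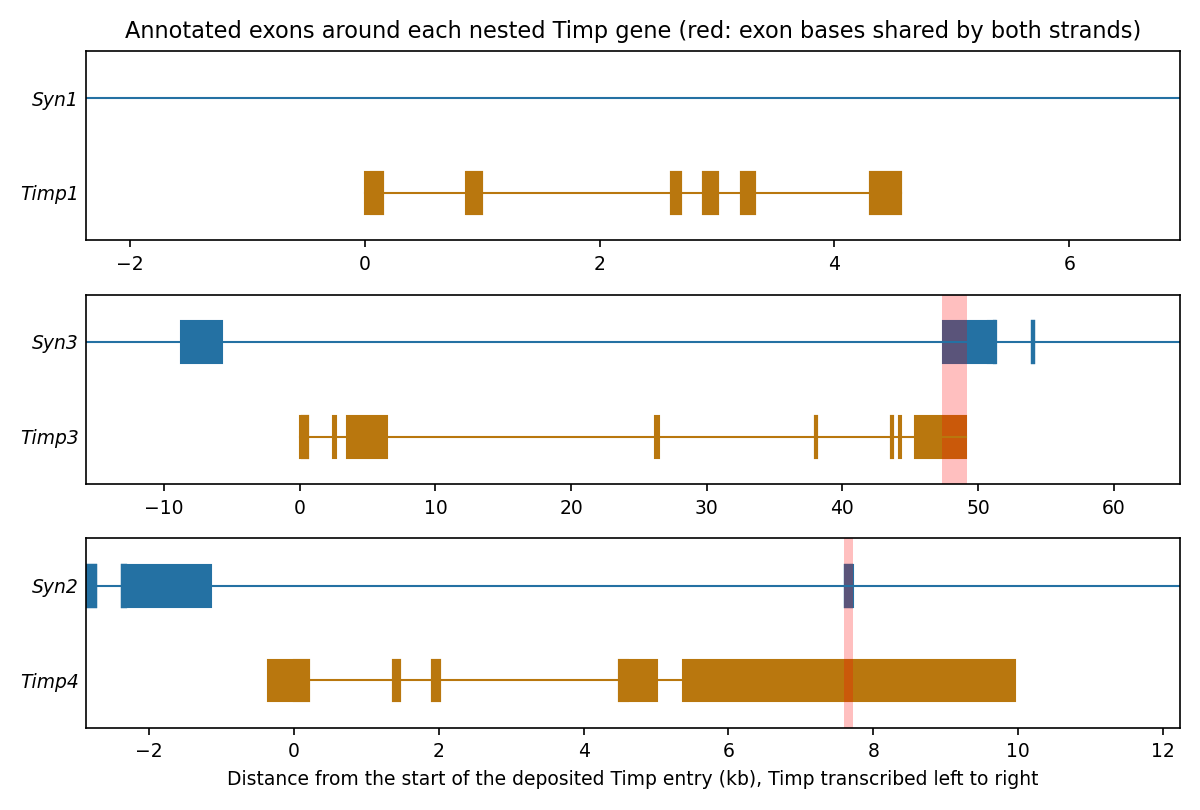
Exons of each synapsin gene (blue, upper row) and of the Timp gene nested in it (orange, lower row), as boxes from all GENCODE M21 transcripts; the horizontal axis is the distance in kb from the start of the deposited Timp entry. Red marks exon bases that both strands share, which are 1733 for Syn3 and Timp3, 90 for Syn2 and Timp4 (beyond the end of the deposited Timp4 entry) and 0 for Syn1 and Timp1.

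Library totals ran from 957828 to 1204964 counts. Of the Schwann cell markers, 8 genes that include the myelin genes Pmp22 and Mbp were counted in every library. They summed to 5717 to 7591 CPM (counts scaled to a common library size) in PINCH1 mutants, 6122 to 7155 in PINCH2 mutants and 7582 to 9257 in controls. Pmp22 (3483 to 5332 counts) and Mbp (1472 to 3645) had the most counts of the 8, whereas Mag, Egr2, S100b and Sox10 had 12 to 65 each. Prx, also in this sum with 281 to 823 counts, shares 300 exon bases with Gm15541 on the opposite strand, which had 3018 to 13734. Every PINCH2 mutant library was below every control library in this sum. Of all single entries tested, 9.05% did not overlap between these groups, in either direction. The PINCH1 mutants overlapped the controls at the edge of their range, and the part of this sum in the results was not tested. Fibroblast markers (8 genes) summed to 785 to 955 CPM in PINCH1 mutants, 549.5 to 924.5 in PINCH2 mutants and 631 to 1399 in controls. Macrophage markers (6 genes) summed to 529 to 598, 468 to 621 and 551 to 688 CPM in the same groups, nearly all of it from Csf1r (454 to 704 counts), which shares 873 exon bases with Hmgxb3 on the opposite strand. The other 5 macrophage genes had 0 to 9 counts each. Markers of perineurial cells, endothelial cells, pericytes and smooth muscle, skeletal muscle and adipocytes summed to at most 129 CPM for each list, and all of these lists, those of fibroblasts and macrophages included, overlapped between the genotypes. The targeted genes could not check the genotype labels, since Lims1 (PINCH1) had 0, 1 and 3 counts in PINCH1 mutants, 0, 1 and 9 in PINCH2 mutants and 3, 7 and 7 in controls, and Lims2 (PINCH2) had 5, 3 and 1 counts, 5, 1 and 1, and 9, 1 and 5 in the same groups. In RNA of a whole nerve, fewer cells of a type and less RNA per cell cannot be told apart.

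Syn3 dominated the set. It had 25474, 28610 and 30261 counts in PINCH1 mutants, 33823, 33916 and 34533 in PINCH2 mutants and 39160, 26320 and 33519 in controls. This single entry took between 2.41% (95% exact binomial interval 2.38% to 2.44%) and 3.75% (3.71% to 3.78%) of all counts of a library, and it ranked 3 among all entries, after mt-Nd6 and Gm20721. Such intervals cover counting error only.

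Timp3, in contrast, had 70, 49 and 70 counts in PINCH1 mutants, 80, 112 and 91 in PINCH2 mutants and 102, 74 and 87 in controls. The PINCH1 mutant libraries were the lowest. In CPM, all 3 PINCH1 mutant libraries lay below all 3 controls for 7.49% of all entries tested and below all 3 PINCH2 mutants for 5.57%, and the share below both groups at once was not computed. Timp2, the Timp gene with no opposite-strand entry, had 30, 28 and 28 counts in PINCH1 mutants, 22, 45 and 24 in PINCH2 mutants and 28, 47 and 45 in controls, and its groups overlapped. Scaled to exon length, Timp3 and Timp2 were close to each other, at a mean over the 9 libraries of 10.03 and 8.47 counts per kb, whereas Syn3 stood at 2584 counts per kb.

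The other members were almost without counts. Syn1 had 6, 1 and 10 counts in PINCH1 mutants, 3, 2 and 2 in PINCH2 mutants and 2, 0 and 4 in controls. Timp1 had 1 count in 1 control library and 0 in the other 8 libraries. A count of 0 allows up to 3 counts, or 2.49 to 3.13 CPM depending on the library, so the Timp1 entry was not detectable above that level in those 8 libraries. With the strand of counting not given, this limit holds for the entry and was not shown to hold for the RNA of the gene. Timp4 had 2, 1 and 1 counts in PINCH1 mutants, 0, 5 and 1 in PINCH2 mutants and 0 in each control. Syn2 had 1 count in 1 PINCH1 mutant library, 2 counts in 1 PINCH2 mutant library and 0 in the remaining 7. These 4 entries did not pass the filter on low counts, which 3 of the 7 members passed (Syn3, Timp3 and Timp2).

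**Figure D2:**
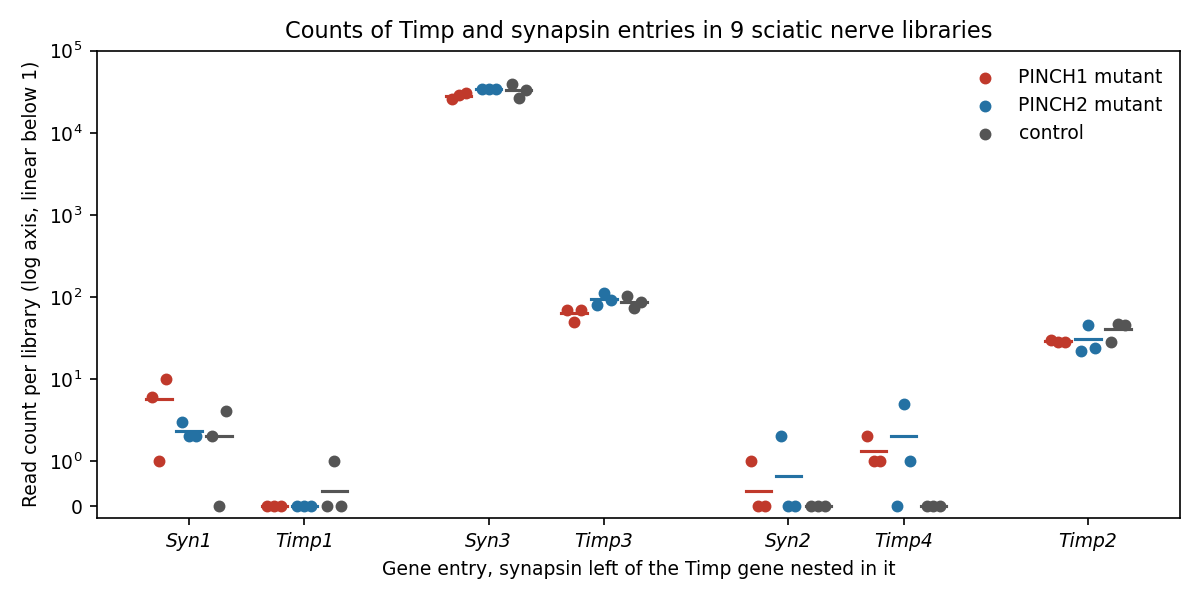
Read counts of the 7 entries in each of the 9 libraries (points; log axis that is linear below 1), with the mean of each genotype as a short line, PINCH1 mutants left, PINCH2 mutants in the middle and controls right. Syn3 lies between 25474 and 39160 counts in every library, Timp3 between 49 and 112, Timp2 between 22 and 47, and the other 4 entries at 10 counts or fewer.

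The order of the levels per kb of exon was Syn3, Timp3, Timp2, Syn1, Timp4, Timp1 and Syn2. Timp3 ran from 6.02 to 8.60 counts per kb in PINCH1 mutants, 9.82 to 13.8 in PINCH2 mutants and 9.09 to 12.5 in controls. Timp2 ran from 7.19 to 7.70, 5.65 to 11.6 and 7.19 to 12.1 in the same groups, so these neighbours in the order overlapped in every genotype. The lower 4 entries each averaged about 1 count per kb or less, and their order was not tested. Among them Syn1 was above Syn2 in 8 of 9 libraries, and both were at 0 in the other one.

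Within a library, the synapsin row was above the Timp row in 9 of 9 libraries for Syn3 and Timp3. Per kb of exon the log2 ratio of Syn3 to Timp3 averaged 8.02 ± 0.26 (SD, n = 9), a ratio of 260.3, with a two-sided exact sign-flip permutation p of 0.0039, the smallest that 9 libraries can give, and 0.012 adjusted over the 3 pairs. Per kb of gene span the log2 ratio was 5.44, with Syn3 again higher at the same p, so the size of the ratio depends on the length used. For Syn1 and Timp1 the synapsin count was higher in 8 libraries and lower in 1, but the log2 ratio per kb, 0.44 ± 1.69 (SD, n = 9), did not differ from 0 beyond the spread (exact sign-flip permutation p = 0.453, adjusted p = 0.453). That ratio rests on the 0.5 counts added to each row: with a pseudocount of 1 it was -0.19 (exact sign-flip permutation p = 0.699). With 0.5 counts added, it was -1.39 (p = 0.0195) per kb of gene span, and 0.93 (p = 0.0156) without control replicate 2, by the same exact permutation test. For Syn2 and Timp4 the synapsin count was higher in 1 library and lower in 5, and both rows were at 0 in the remaining 3. Its log2 ratio per kb of -2.69 ± 1.60 (SD, n = 9; exact sign-flip permutation p = 0.0078, adjusted p = 0.012) is in part the ratio of the exon lengths, which is all that a library with 0 in both rows contributes. No level difference is read from it. The high synapsin count was in the pair whose exons share bases within the deposited spans, and the synapsins of the other pairs had 0 to 10 counts. Whether the shared bases have a part in that count was not tested.

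Neuronal transcripts were read beside Syn3, since synapsins are neuronal genes. Of 12 neuron markers, the synaptic membrane gene Snap25 and the nuclear splicing factor gene Rbfox3 were at 0 in all 9 libraries, and Stmn2, Gap43, Tubb3, Elavl3 and Elavl4 had at most 1 count. Nefh reached 20 counts, Uchl1 7, Nefl 5 and Prph 3. The list summed to 57.4 to 143.9 CPM in PINCH1 mutants, 122 to 190.02 in PINCH2 mutants and 96.3 to 177 in controls. Their part in the Syn3 count was not tested. Most of the sum came from the neurofilament gene Nefm, with 51 to 176 counts, which itself shares 1108 exon bases with Nefl on the opposite strand. Of the 33 listed genes of synaptic vesicles and their release, 6 of the 32 in the table passed the filter. Those with the highest levels were Rab3a, a small GTPase of vesicles, with 20 to 39 counts, and Bsn, an active zone scaffold, with 13 to 29. The count of Syn3 in every library, at least 25474, was far above those of the other vesicle entries that could be tested. Of these, Syp (10 to 21 counts) shares 875 exon bases with Gm14703 on the opposite strand, which had 512 to 930 counts. Rab3a shares 29 with Mpv17l2, which had 0 to 7 counts. Whether strand has a part in these counts was not tested.

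**Figure D3:**
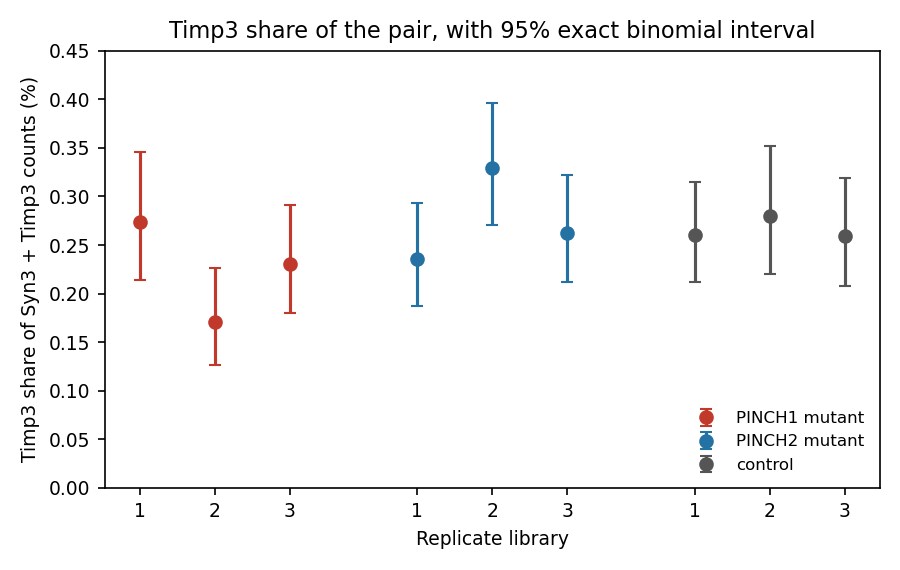
Timp3 counts as a percent of the summed Syn3 and Timp3 counts in each library (points), with the 95% exact binomial interval as bars, which cover counting error only. The share lies between 0.171% (PINCH1 mutant replicate 2) and 0.329% (PINCH2 mutant replicate 2), and the 3 genotypes overlap.

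The balance between the rows of the Syn3 and Timp3 pair was then compared between genotypes, a measure in which library depth cancels. Timp3 made up 0.274%, 0.171% and 0.231% of the summed counts of the pair in PINCH1 mutants, 0.236%, 0.329% and 0.263% in PINCH2 mutants and 0.260%, 0.280% and 0.259% in controls. Replicate 2 of the PINCH1 mutants was the lowest, with an exact binomial interval of 0.127% to 0.226%, and replicate 2 of the PINCH2 mutants the highest, at 0.271% to 0.396%. The log2 ratio of Syn3 to Timp3 was 8.81 ± 0.34 in PINCH1 mutants and 8.54 ± 0.07 in controls (SD, n = 3 each), a difference of 0.26 that was not larger than the spread (two-sided exact permutation p = 0.3). It was 0.08 without PINCH1 mutant replicate 2 and 0.42 without PINCH1 mutant replicate 1. In PINCH2 mutants it was 8.50 ± 0.24, against 8.54 ± 0.07 in controls (SD, n = 3 each, difference -0.04, exact permutation p = 0.8). Between the mutants, 8.81 in PINCH1 against 8.50 in PINCH2, the difference was 0.30 (exact permutation p = 0.4), with a range of 0.12 to 0.46 when 1 library was left out. With 3 against 3 libraries p cannot fall below 0.1. Adjusted over the 9 ratios of all pairs and comparisons, p was 0.72 to 1.

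The ratio of Syn1 to Timp1 had exact permutation p-values from 0.4 to 0.9 over the 3 comparisons. That of Syn2 to Timp4 had 0.1 for PINCH1 mutants against controls, 0.7 for PINCH2 mutants against controls and 1 between the mutants. Both rows were at 0 in every control, so each control log2 ratio was 0 from the added counts alone, without spread. The 0.1, the smallest p of this test, sets a few Timp4 counts against that constant, and no difference is read from it. At 0 to 10 counts a library, no difference between genotypes was detectable in these pairs.

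The genotype comparisons of single entries ask which of these genes differ in count when PINCH1 or PINCH2 is mutated. 0 of the 3 testable members passed at an adjusted p of 0.05 in PINCH1 mutants against controls (edgeR and DESeq2 alike), and 0.0633% of all 4738 entries tested passed with edgeR. Before adjustment 1 member was under 0.05 with edgeR, against 6.37% of all entries. It was Timp3, at 59.3 ± 4.19 CPM scaled by TMM in PINCH1 mutants and 84.4 ± 18.7 in controls (SD, n = 3 each), with a log2 fold change of -0.50 (SE 0.24, edgeR unadjusted p = 0.045, adjusted p = 0.759). Without control replicate 1 it was -0.31 (edgeR adjusted p = 0.911), and over all single libraries left out it ranged from -0.62 to -0.31. Its TMM-scaled values were 63.8, 55.6 and 58.4 CPM in PINCH1 mutants and 105, 69.7 and 77.9 in controls. All 3 mutant libraries lay below all 3 controls, as they did for 7.49% of all entries.

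Syn3 in PINCH1 mutants was at 26986 ± 4853 CPM, against 31771 ± 7981 in controls (SD, n = 3 each), and the groups overlapped. Its log2 fold change was -0.24 (SE 0.16, edgeR adjusted p = 0.86), with a 95% interval of -0.58 to 0.11. It was -0.016 without control replicate 1 and -0.39 without PINCH1 mutant replicate 2, the ends of its range with 1 library left out. Timp2 was at 27.5 ± 4.20 CPM in PINCH1 mutants and 37.9 ± 7.97 in controls (SD, n = 3 each), with a log2 fold change of -0.47 (SE 0.33, edgeR adjusted p = 0.863) and an interval of -1.16 to 0.22. A level at 0.5 of the control lies outside the interval of Syn3 and inside that of Timp2.

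In PINCH2 mutants against controls, 0 of the 3 members passed with edgeR or DESeq2, and 0.0211% of all entries passed with edgeR. With edgeR 0 members had an unadjusted p under 0.05, against 4.26% of all entries, and the libraries of all 3 members overlapped between the groups, whereas 9.05% of all entries did not overlap. Syn3 was at 32964 ± 4010 CPM in PINCH2 mutants and 31771 ± 7981 in controls (SD, n = 3 each), a log2 fold change of 0.05 with an interval of -0.29 to 0.40. Timp3 was at 89.95 ± 4.69 CPM in PINCH2 mutants and 84.4 ± 18.7 in controls (SD, n = 3 each), a log2 fold change of 0.10 with an interval of -0.39 to 0.58. Timp2 was at 28.4 ± 8.06 CPM in PINCH2 mutants, against 37.9 ± 7.97 in controls (SD, n = 3 each), a log2 fold change of -0.41 with an interval of -1.09 to 0.28. Adjusted p was 0.999 for all 3 (edgeR).

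Between PINCH1 and PINCH2 mutants, 0 of the 3 members passed with edgeR or DESeq2, where 0.0844% of all entries passed with edgeR. Before adjustment 1 member, Timp3, was under 0.05, against 6.35% of all entries. It was at 59.3 ± 4.19 CPM in PINCH1 mutants, against 89.95 ± 4.69 in PINCH2 mutants (SD, n = 3 each), with a log2 fold change of -0.60 (SE 0.24, edgeR unadjusted p = 0.019, adjusted p = 0.756). All 3 PINCH1 mutant libraries lay below all 3 PINCH2 mutant libraries, as they did for 5.57% of all entries. For Syn3 the log2 fold change was -0.29 (SE 0.16, unadjusted p = 0.0949, edgeR adjusted p = 0.884), and for Timp2 it was -0.06 (SE 0.34, edgeR adjusted p = 0.993). The comparisons share libraries, so that their values are not independent of each other.

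**Figure D4:**
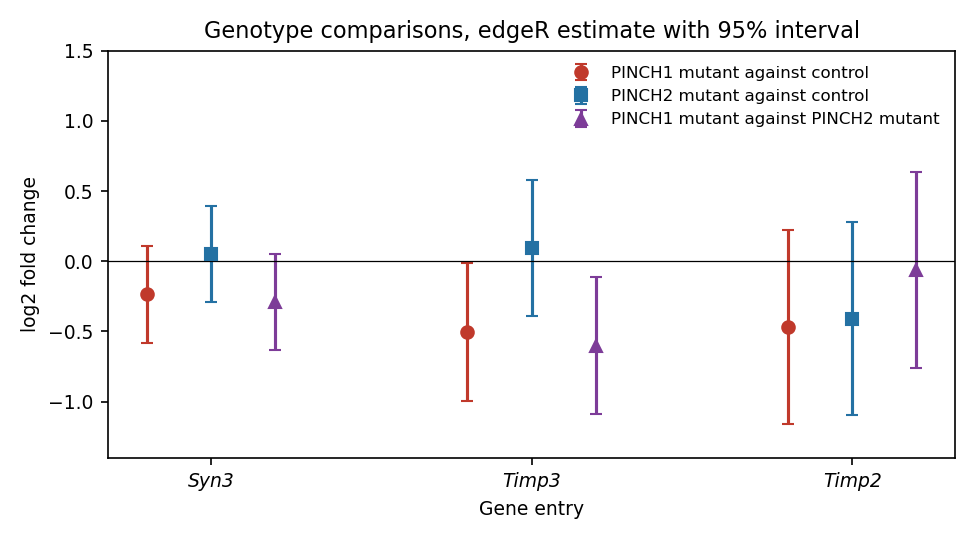
Log2 fold changes of Syn3, Timp3 and Timp2 in the 3 genotype comparisons (edgeR estimate over 9 libraries), with 95% intervals as bars. Intervals of Timp3 lie below 0 in both comparisons of PINCH1 mutants before adjustment, while the remaining intervals include 0.

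Proteases of the matrix metalloproteinase, ADAM and ADAMTS families, which include targets of TIMPs, were taken as a list of 45 genes, of which 13 passed the filter. Whether TIMPs inhibit each of them was not checked. 0 of the 13 passed the test in any of the 3 comparisons with edgeR or DESeq2, and 2, 1 and 1 had an unadjusted p under 0.05 with edgeR, in PINCH1 mutants against controls, PINCH2 mutants against controls and between the mutants, where 6.37%, 4.26% and 6.35% of all entries were under it. In PINCH1 mutants against controls 9 of the 13 had a log2 fold change above 0, and 4 below, with a median of 0.21, where 52.2% of all entries were below 0 with a median of -0.02. In PINCH2 mutants against controls 9 were above 0 and 4 below, with a median of 0.06, where 49.3% of all entries were below 0 with a median of 0.00. Between PINCH1 and PINCH2 mutants 10 were above 0 and 3 below, with a median of 0.14, where 52.6% of all entries were below 0 with a median of -0.02. The entries with the highest levels were Mmp24, a membrane-bound metalloproteinase with 1160 to 1669 counts, and Mmp19, a secreted one with 938 to 1441. Mmp24 had a log2 fold change of -0.17 (SE 0.16) in PINCH1 mutants and 0.02 (SE 0.16) in PINCH2 mutants, both against controls. Mmp19 had one of 0.21 (SE 0.16) and one of 0.00 (SE 0.16) in the same comparisons. Both share exon bases with an opposite-strand gene, Mmp24 with BC029722 (637 bases, 0 to 7 counts) and Mmp19 with Tmem198b (789 bases, 218 to 357 counts). Of the 13, Adamts9 (1381 bases with A730049H05Rik and 424 with Gm15737), Mmp28 (466 with 1700020L24Rik), Adam17 (311 with Iah1) and Adamts7 (122 with Tbc1d2b) do so as well. Mmp28, under 0.05 before adjustment in both comparisons with controls, had 14 to 42 counts, and 1700020L24Rik 277 to 685. Adam17 had 88 to 137 counts, and Iah1 0 to 7. Counts from all those bases too cannot be assigned to a strand.

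Of 12 TIMP binding partners and other protease regulators, 6 passed the filter and 0 passed the test in any comparison with edgeR or DESeq2. With edgeR, 0, 1 and 1 of them had an unadjusted p under 0.05 in the 3 comparisons in the order above, beside the same 6.37%, 4.26% and 6.35% of all entries. The median log2 fold change was -0.26 both in PINCH1 and in PINCH2 mutants against controls. Itgb1, the integrin beta 1 chain and a receptor with which TIMP2 interacts, had the most counts, 79 to 161, and Pcolce, a procollagen protease enhancer, followed with 25 to 46. Of the 6 testable vesicle genes, 0 passed with edgeR or DESeq2 and 0 had an unadjusted p under 0.05 in any of the comparisons, and their median log2 fold change was -0.08 in PINCH1 mutants and -0.02 in PINCH2 mutants.

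Entries whose level followed each testable member most closely over the 9 libraries were listed by the Pearson correlation of log2 CPM, as a description. Syn3 was most like Iqck (r = 0.98), 1300010F03Rik (0.97) and Gm12264 (0.96). Timp3 was most like Mical3 (0.94), Cmc1 (0.93) and Sh3gl1 (0.91), and Timp2 most like BC005537 (0.93), Hnrnpc (0.91) and Triobp (0.90). No entry appeared for more than 1 member. These are the highest values over all entries tested, across libraries that share depth and genotype.

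Nested genes on opposite strands are common, and the pair was set beside those whose entries were both matched to GENCODE M21. There were 1586 such pairs, each with an entry wholly inside another on the opposite strand. Of them, 663 had at least 90 counts for the pair over the 9 libraries. Of these, 410 had exon bases in common in GENCODE M21. For this split all annotated exon bases were used, also those outside the deposited spans. The host entry had the higher count in all 9 libraries in 27.3% of the 410 pairs, and the nested entry in 61.5%. Among the 92 such pairs in which both genes code for proteins, the host was higher throughout in 56.5% and the nested gene in 36.96%. Syn3 and Timp3, with a log2 ratio of summed counts of 8.60, ranked 17 of 410 and 5 of 92 in the ratio of host to nested count. The pairs above it among coding genes were Mapk8ip3 with Mrps34 and with Nme3, Vprbp with Rbm15b, and A530032D15Rik with Gm10553. Host entries of the 253 pairs without common exon bases were higher in all 9 libraries in 66.4% of cases, and in 46.7% of the 107 such pairs of coding genes. The synapsin and Timp spans hold a few more opposite-strand entries. Gm15990, within Syn3 and without common exon bases, had 15, 13 and 8 counts in PINCH1 mutants, 1, 7 and 0 in PINCH2 mutants and 7, 1 and 7 in controls. The entry 4930486F22Rik, also within Syn3, had 0 to 3 counts. It was not matched to GENCODE M21 and so is not among the 1586 pairs. Araf, which shares 9 exon bases with Syn1, had 4 to 9 counts, and Gm17482, across Timp4, had 0 in all 9 libraries.

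**Figure D5:**
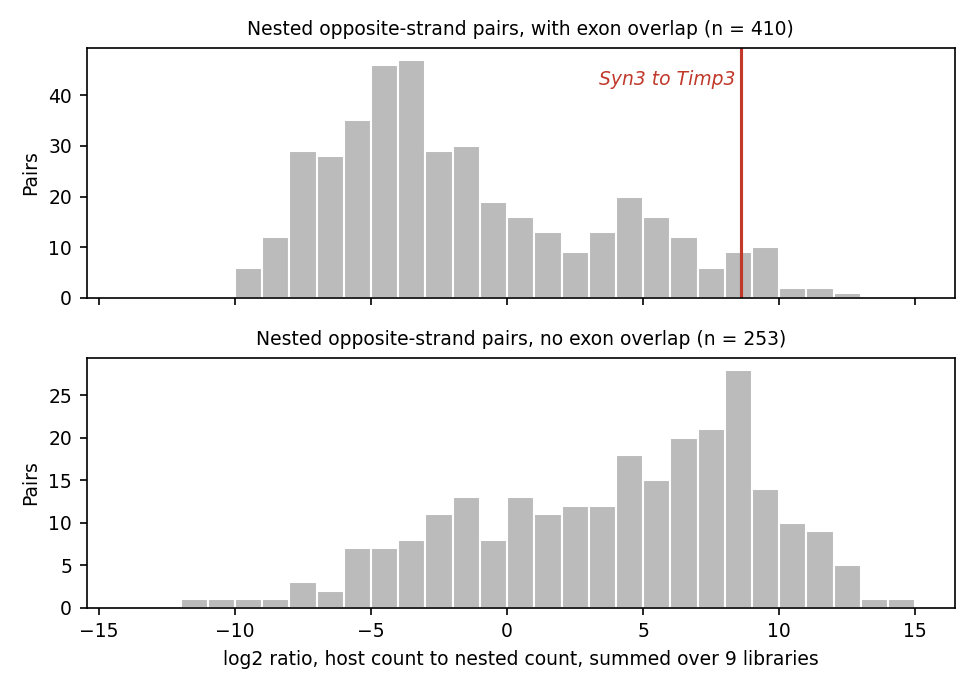
Number of nested opposite-strand pairs by the log2 ratio of the host count to the nested count, summed over 9 libraries. The upper panel (n = 410) has pairs with exon bases in common in GENCODE M21, the lower panel (n = 253) those without. The red line marks Syn3 to Timp3 at 8.60, in the upper tail of its class.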

How the data were processed

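RNA of sciatic nerve was measured in 9 libraries. The authors' deposited file gives raw read counts, unscaled, for 25965 gene entries. HISAT2 2.0.5, cutadapt 1.9.1 and Trim Galore 0.4.2 are named, with build GRCm38, per the submitters' processing notes. How reads were assigned to genes, whether by strand, and with which annotation: not given in the sources used here. Entries were matched by identifier to GENCODE M21 (96.4% found) for exons, and exon lengths were limited to the deposited spans.

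All 9 libraries entered 1 edgeR 4.0.16 model (R 4.3.3; quasi-likelihood F-test, robust dispersion, TMM, filterByExpr, genotype as the only term), with Benjamini-Hochberg adjustment over 4738 entries, and the procedure was tested on simulated data. Standard errors were derived from the log2 fold change and its F statistic, and 95% intervals use the t distribution of the fit. Pair ratios had 0.5 counts added to both rows and were tested by exact permutation over libraries (scipy 1.17.1). 1 listed Schwann cell marker is not reported here and was left out of its list's sum. The labels name no batch. Replicates are pools of nerves, so p-values measure the spread between pools. Replicates of a group differed beyond counting noise. The 7 members, the lists and the tests were chosen with earlier results of these data known. Named genes were the members, opposite-strand entries within their spans and the 3 most similar entries each. The 2 list members with the highest CPM were named where none passed. Lims1, Lims2, Nefm, Snap25 and other markers, and the coding pairs above Syn3 were chosen after their values were seen. So were Syp, Adamts9, Mmp28, Adam17 and Adamts7, for their exon overlaps. DESeq2 1.42.0, RLE scaling, no filter, the 6 libraries compared, a replicate block, a pseudocount of 1, length by gene span and each library left out were the alternatives.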

Additional observations from a re-analysis of the deposited data

How the results depend on the processing

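The number of members called stayed at 0 in each of the 3 genotype comparisons under RLE scaling, no filter, DESeq2, the 6 libraries compared, the replicate block and each library left out. Same-numbered libraries of different genotypes correlated in their deviations from the group means at -0.11 to 0.25, and libraries of other numbers at -0.20 to 0.14. These ranges overlapped, and the numbers were not taken as pairs in the main model.

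The values that changed sign belonged to results that had not passed a test. In PINCH2 mutants against controls, the log2 fold change of Syn3 was -0.10 without control replicate 2 and -0.01 without PINCH2 mutant replicate 1, and that of Timp3 was -0.025 without control replicate 2, in a range of -0.025 to 0.28. Between the mutants, Timp2 was at 0.05 without PINCH1 mutant replicate 3 and 0.22 without PINCH2 mutant replicate 2, in a range of -0.18 to 0.22. Leaving out 1 library each, the PINCH2 against control ratios ranged from -0.14 to 0.10 for Syn3 to Timp3 (0.10 without PINCH2 mutant replicate 2), from -0.26 to 2.12 for Syn1 to Timp1 (-0.26 without control replicate 2) and from -2.52 to 0.37 for Syn2 to Timp4 (0.37 without PINCH2 mutant replicate 2); between the mutants the last ranged from -1.67 to 1.22 (1.22 without PINCH2 mutant replicate 1). Within a library, Syn1 to Timp1 was at -1.39 per kb of span (exact permutation p = 0.0195) and -0.19 with a pseudocount of 1, and ranged from 0.19 to 0.93 with 1 library left out (0.93 without control replicate 2, exact permutation p = 0.0156). At most 10 counts a library limit that pair. The cause of the other turns was not tested. With the replicate block, Timp3 in PINCH1 mutants against controls was at -0.50 (edgeR adjusted p = 0.728). For pair ratios the block gives the same mean difference by construction (0.26 for Syn3 to Timp3 in this comparison), and their p-values, at least 0.1 with 3 against 3 libraries, could not pass 0.05 under any alternative, so they say nothing about stability.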
